A study of Mus musculus with 3 samples.

Results

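The levels of 10 genes that move sodium, chloride and water across epithelia were described in sorted cells of the mouse larynx. The genes were taken by symbol and are 10 of the 33696 features counted. They are Scnn1a, Scnn1b and Scnn1g, which encode the alpha, beta and gamma subunits of the epithelial sodium channel (ENaC), Cftr, a chloride and bicarbonate channel opened by cAMP signalling, Ano1, a chloride channel opened by calcium, Slc12a2, the basolateral sodium, potassium and chloride cotransporter NKCC1 that loads secretory cells with chloride, Clca3a2, a member of the secreted CLCA protein family, Aqp3, a channel for water and glycerol, and the water channels Aqp4 and Aqp5.

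The liquid layer on an airway surface is set by absorption of sodium through apical ENaC and by secretion of chloride through apical CFTR or ANO1, and water follows the salt through aquaporins. A full ENaC needs its 3 different subunits, whereas partial channels carry less current. In the larynx a stratified squamous lining on the vocal folds borders a ciliated airway lining and the ducts and acini of submucosal glands, so that absorbing and secreting cells lie close together.

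All 3 libraries held tdTomato-sorted cells of Lrig1CreERT2/+; ROSA26CAG−LSL−tdTomato/+ mice. In these animals Cre is driven by Lrig1, and tamoxifen, given on consecutive days, makes it switch on the red reporter in Lrig1-expressing cells and their progeny. Tissue was taken 24 h after recombination, each library pooled 10 larynges (5 males and 5 females), and the age of the animals is not given in the sources used here. WT and ROSA26CAG−LSL−tdTomato/+ larynges served to set the sort gates and were not analysed here, so unlabelled cells have no counterpart in these values. Replicates were separate pools of animals, and single animals and sexes cannot be told apart. P-values rest on the spread between 3 libraries within groups of cells, pooled over all groups in a fit, although these groups come from the same 3 pools.

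After quality limits and doublet removal, 13222, 7201 and 24119 cells remained in libraries 1, 2 and 3, with medians of 10789.5, 14303.0 and 10818.0 UMIs (unique molecular identifiers) per cell. Barcodes shared by pairs of libraries numbered 46, 165 and 96. Cells were put into classes by minimum UMI numbers of marker genes, none of them among the 10 genes, and 32654 cells (73.3%) were epithelial, 8302 (18.6%) were non-epithelial and 3586 (8.05%) were left unassigned. Cell type words in the class names (ciliated, tuft, basal, leukocyte and so on) stand for cells like that type by these markers. Of 64 further markers, none of them in the gate that names their own class, 57 were at least 2-fold above the median of the other classes there. The exceptions included 2 of the 4 for the Foxi1/Ascl3+ cells, which are therefore named by their genes, and 2 of the 3 for Grm8+ cells. Krt7, Krt8 and Krt15 were also in the epithelial gate, and Krt13 gated a class read before Grm8+. The check is not independent for these genes. Levels are UMIs of a gene per 1000000 UMIs of the class in a library (CPM), given as mean ± SD over the 3 libraries, and 14 epithelial classes had at least 20 cells in every library. Levels of different genes were not ranked against each other, and UMIs of 1 gene per UMIs of another are compared between classes only. Counted genes lie antisense to Scnn1b (Cog7), Cftr, Ano1, Clca3a2 and Aqp4, and the strand setting of the counting is not given in the sources used here. Intervals and floors given for counts cover counting error only.

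Epithelial cells held between 86.6% (Slc12a2) and 99% (Aqp3) of the UMIs of each gene in the kept cells. Library 3 stood apart for several of them. Its Scnn1a level was below that of both other libraries in 12 of the 14 classes (median ratio to their mean 0.479), its Aqp5 level was above both in 13 (1.45) and its Aqp3 level was above both in 12 (1.3). The Scnn1a level over all epithelial cells was 150, 156 and 61.5 CPM in libraries 1, 2 and 3. What set library 3 apart was not tested, and values are therefore given by library.

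**Figure D1:**
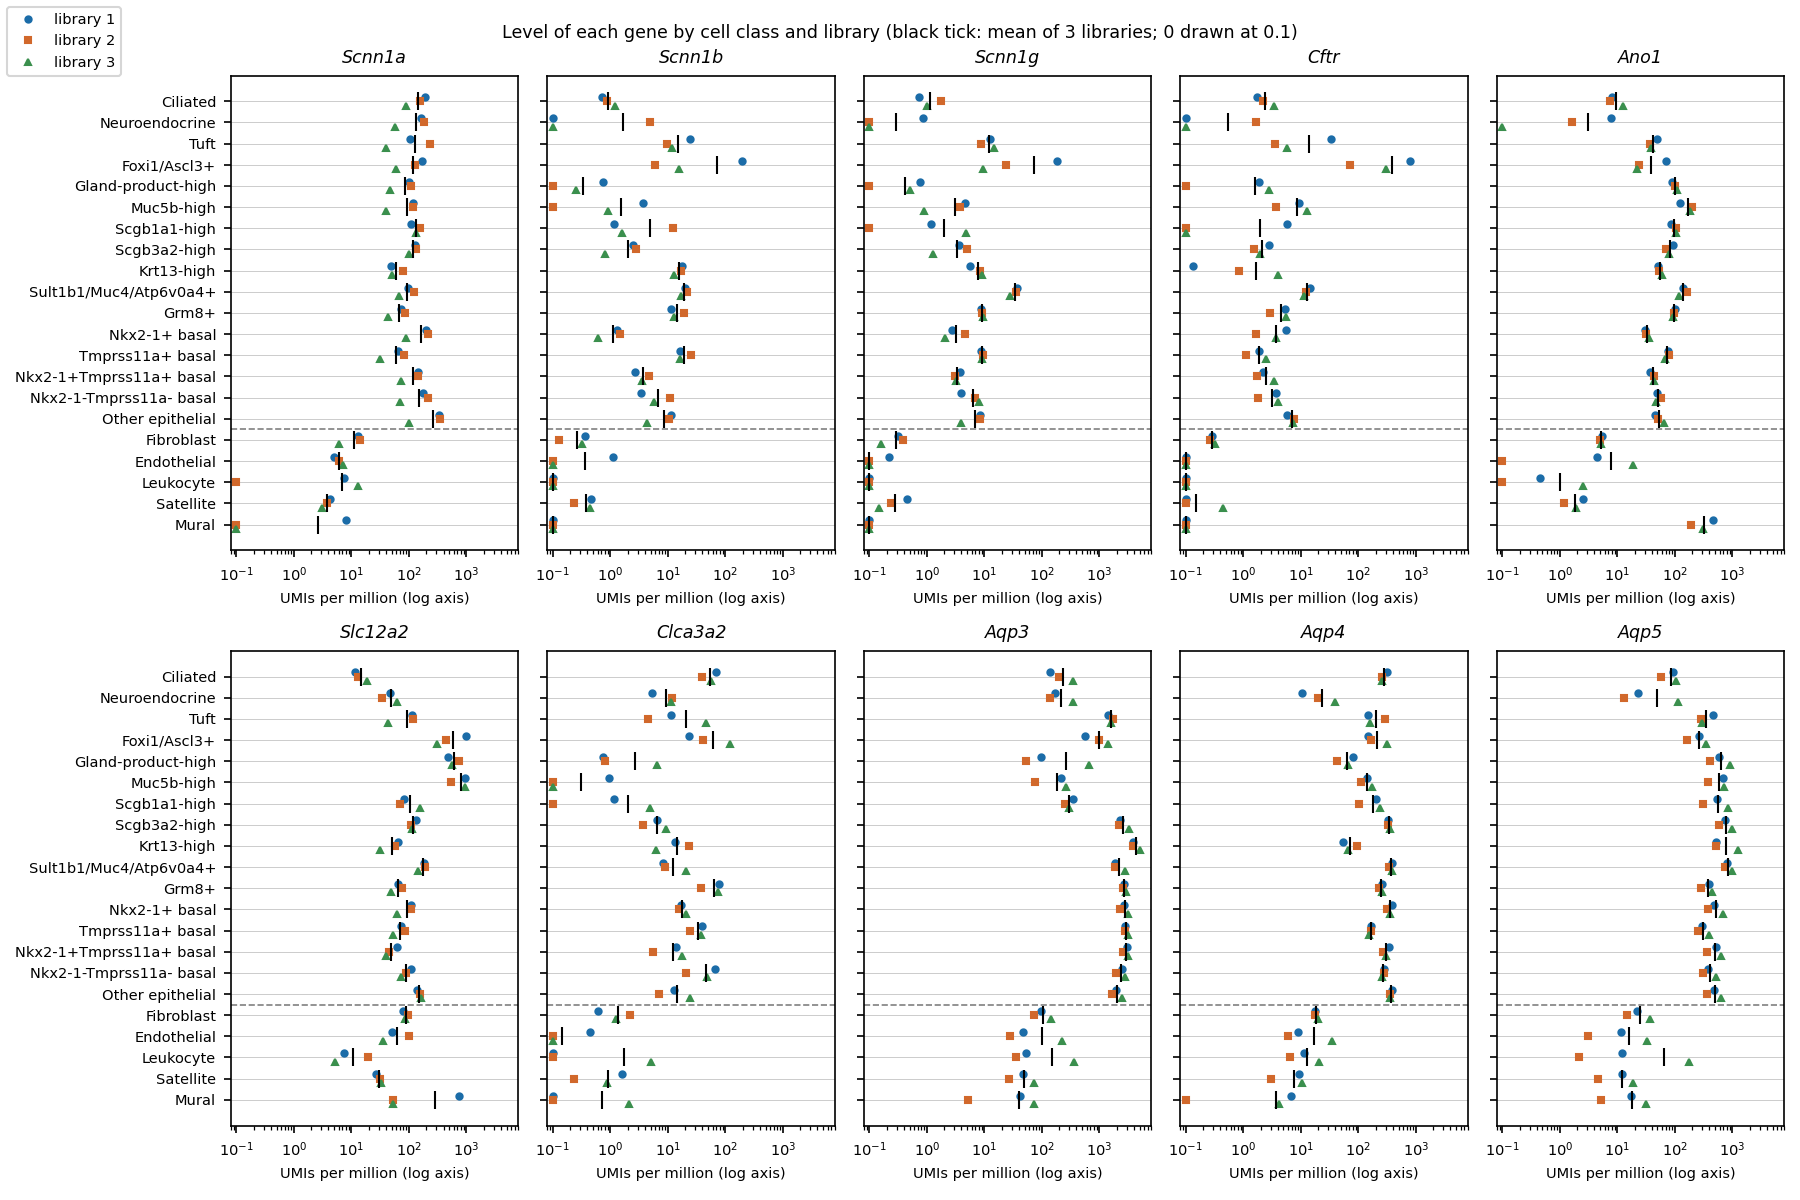
Levels of the 10 genes (CPM, log axis, 0 drawn at 0.1) by cell class. Coloured points are libraries 1 to 3, black ticks the means, and the dashed line divides epithelial from non-epithelial classes. Scnn1a was at 31.6 CPM or more in each library of the 14 epithelial classes with at least 20 cells per library, and Aqp3 reached 3859 to 5140 in Krt13-high cells.

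Scnn1a was found in every epithelial class, whereas Scnn1b and Scnn1g had their highest means among the 14 classes in Sult1b1/Muc4/Atp6v0a4+ cells. Scnn1a (GRCm39 chr6:125297622-125321906) was highest in the epithelial cells that passed no class gate, at 333, 345 and 102 CPM (260 ± 137, n = 3). Tg, which encodes thyroglobulin, was among the leading genes of these cells, and Scnn1a was at 346, 354 and 103 CPM when cells with at least 20 Tg UMIs per 10000 were left out. Nkx2-1+ basal cells, which carry the airway transcription factor, came next at 195, 212 and 89.3 CPM. The lowest mean of the 14 classes was that of Tmprss11a+ basal cells, which carry a squamous-lining protease, at 63.8, 81.3 and 31.6 CPM (58.9 ± 25.2, n = 3). Krt13-high cells (59.8 ± 17.2 CPM, n = 3) overlapped them. The top mean was 4.42-fold the lowest one, and each class of the 14 overlapped its neighbour in the order. Fibroblasts, with 12.8, 14.3 and 6.14 CPM, lay below every epithelial class.

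Scnn1b levels were graded over the classes. Sult1b1/Muc4/Atp6v0a4+ cells had 19.6, 21.7 and 16.6 CPM (19.3 ± 2.57, n = 3) and Tmprss11a+ basal cells 16.4, 25 and 16.2 CPM (19.2 ± 5.04, n = 3). Krt13-high cells, marked by a keratin of suprabasal squamous layers, had 17.3, 17.2 and 12.9 CPM, and Grm8+ cells 11.5, 19.2 and 12.9 CPM. These classes overlapped one another, and tuft cells, between 9.8 and 23.9 CPM, overlapped all of them. Epithelial cells that passed no class gate (4.27 to 11.5 CPM), basal cells with neither gate gene (3.37 to 10.8 CPM) and Scgb1a1-high cells (1.17 to 12.2 CPM) had lower means and overlapped tuft cells. Without cells of at least 20 Tg UMIs per 10000, the cells of no class gate were at 6.1, 6.01 and 3.56 CPM, below the tuft range. The cells left out were at 119, 122 and 60.3 CPM. Nkx2-1+ basal cells had 1.32, 1.47 and 0.605 CPM and ciliated cells 0.723, 0.869 and 1.19 CPM, with no overlap with any of the first 4 of these classes. In gland-product-high cells (cells rich in Dcpp, Lpo and Dmbt1 products of submucosal glands) Scnn1b had 3 UMIs in 598 cells.

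Scnn1g was highest in Sult1b1/Muc4/Atp6v0a4+ cells, at 36.8, 35.1 and 28.4 CPM (33.5 ± 4.43, n = 3), above every library of every other class with at least 20 cells per library. Tuft cells followed with 12.5, 8.91 and 14.5 CPM, and Tmprss11a+ basal cells had 8.89, 9.41 and 9.15 CPM. Nkx2-1+ basal cells had 2.78, 4.63 and 2.1 CPM, below Tmprss11a+ basal cells in each library. The classes rich in Scnn1b thus held Scnn1g as well, but in another order. Outside the 14 classes, the 34 Foxi1/Ascl3+ cells had 185, 23.7 and 9.38 CPM of Scnn1g.

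The ratio of subunit UMIs was compared between classes within each library, and its size depends on how well each transcript is captured at its 3′ end. For each 100 Scnn1a UMIs, Nkx2-1+ basal cells held 0.674, 0.694 and 0.677 Scnn1b UMIs in libraries 1, 2 and 3. Tmprss11a+ basal cells held 25.7, 30.8 and 51.2. In basal cells with UMIs of both gate genes the values were 1.83, 3.36 and 4.9, nearer to the Nkx2-1+ cells. Any UMI of Nkx2-1 or Tmprss11a counted in this split of basal cells. Those with both had medians of 17725.5, 21488.0 and 12805.5 UMIs by library, and those with neither 10376.5, 11477.0 and 6213.0. The part of depth in the split was not tested. For Scnn1g, Sult1b1/Muc4/Atp6v0a4+ cells had the highest ratios among the 14 classes on average (36.7 ± 7, n = 3), with 38.7, 28.9 and 42.4, while ciliated cells had 0.377, 1.12 and 1.09.

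**Figure D2:**
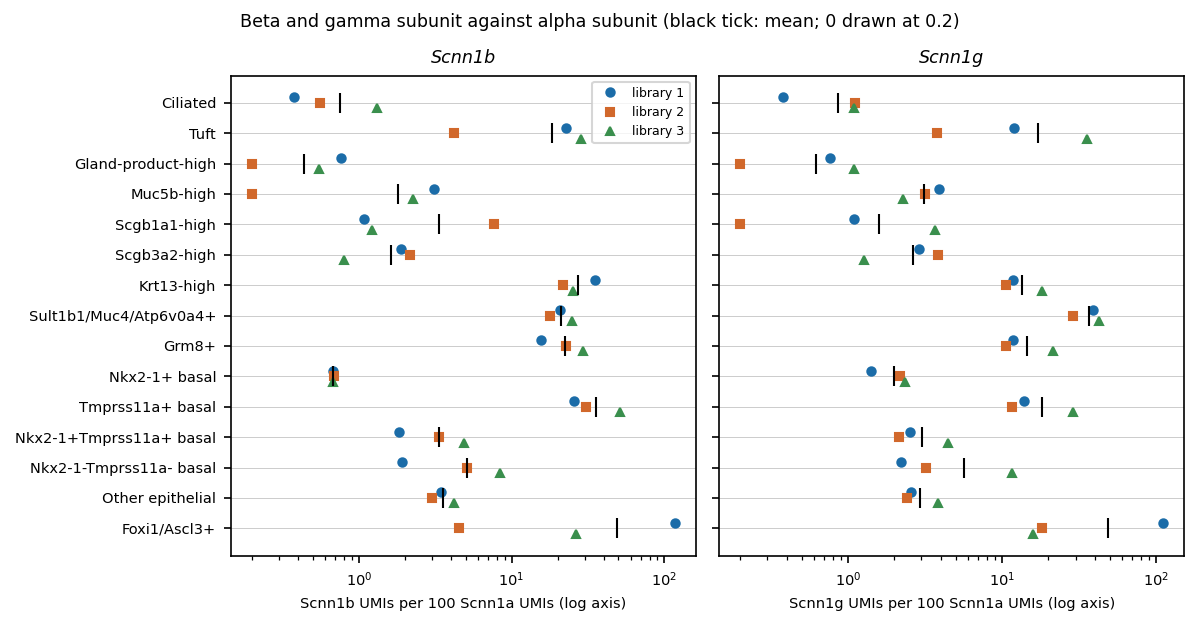
Scnn1b and Scnn1g UMIs per 100 Scnn1a UMIs (log axis, 0 drawn at 0.2) by epithelial class, with 1 point per library. Nkx2-1+ basal cells lie between 0.674 and 0.694 for Scnn1b in the 3 libraries, and Tmprss11a+ basal cells between 25.7 and 51.2.

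Counted cell by cell, most epithelial cells showed no subunit or the alpha subunit alone. For shares of cells, each cell was thinned to 5000 UMIs, which used 36016 cells and left out 8526 shallower ones. Of 28906 thinned epithelial cells 63% showed no subunit, 30.5% showed Scnn1a alone, 4.56% showed Scnn1b or Scnn1g without Scnn1a, 1.81% showed Scnn1a with 1 other subunit, and 38 cells (0.131%) showed all 3. By library, no subunit was found in 53.6%, 48.7% and 70.5% of cells and Scnn1a alone in 40.4%, 42.7% and 23.4%. Library 3 held 17488 of the 28906 cells, so the pooled shares lie nearest to its own. At this depth a cell without a UMI may still hold the transcript, and free RNA can add UMIs, so these shares are of cells with a UMI and not of cells that express a subunit.

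Scnn1b or Scnn1g was seen in 20.3 ± 3.5% (SD, n = 3) of Sult1b1/Muc4/Atp6v0a4+ cells, 12.3 ± 2.97% of Tmprss11a+ basal cells and 1.9 ± 0.615% of Nkx2-1+ basal cells. In the same cells Scnn1a was seen in 33.2 ± 4.98%, 23 ± 6.91% and 46.2 ± 12.3%. The order of the basal classes was thus opposite for the alpha subunit and for its partners. Scnn1b, with or without the other subunits, was seen in 9.68 ± 2.75% of Sult1b1/Muc4/Atp6v0a4+ cells at 5000 UMIs and in 23 ± 6.51% without thinning. Leukocytes, which should lack ENaC, showed Scnn1a in 3.44 ± 3.14% of thinned cells and Scnn1b in 0 of 182, which allows a share of up to 1.65%. Gland-product-high cells showed Scnn1b in 0 of 474 thinned cells, which allows a share of cells with a UMI of up to 0.633% at this depth.

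Scnn1b and Scnn1g are neighbours on mouse chromosome 7 (GRCm39 chr7:121463946-121517737 and chr7:121333545-121367755, both on the plus strand), and their levels ran together over classes. Over 44 sums of class and library the Pearson correlation of log2(CPM + 1) was 0.75 for Scnn1b with Scnn1g and −0.19 for Scnn1b with Scnn1a, a description of sums that share libraries. Because these subunits moved together, the 250 bases before each annotated start are shown, from RefSeq sequence of GRCm38.p6 on the plus strand. Capitals mark matches to GGGCGG (the GC box) or CAAGTG (an NKX2-1 core) on either strand, and Scnn1b is chr7:121864788-121865037 and Scnn1g chr7:121734229-121734478 in that build.
Scnn1b: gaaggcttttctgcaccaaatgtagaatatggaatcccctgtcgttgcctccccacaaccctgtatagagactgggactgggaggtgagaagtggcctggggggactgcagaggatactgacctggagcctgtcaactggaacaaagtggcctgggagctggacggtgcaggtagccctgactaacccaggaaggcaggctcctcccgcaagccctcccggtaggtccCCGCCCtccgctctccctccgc
Scnn1g: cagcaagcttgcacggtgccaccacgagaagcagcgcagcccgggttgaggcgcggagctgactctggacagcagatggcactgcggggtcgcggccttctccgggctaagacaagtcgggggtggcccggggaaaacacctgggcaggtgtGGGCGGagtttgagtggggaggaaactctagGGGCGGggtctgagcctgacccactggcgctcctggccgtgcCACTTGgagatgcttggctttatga

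The Scnn1b window held 1 GGGCGG match at a GC content of 60.8%, and the Scnn1g window held 2 GGGCGG matches and 1 CAAGTG match at 65.2%. Of 32851 promoter windows of this length in the table, 32.7% held GGGCGG and 11.6% held CAAGTG. Neither window held TGANTCA (an AP-1 motif, in 6.75% of all windows) or AACNGGTT (a grainyhead motif, in 1.79%). A match is a description of letters and not a binding site. Entries were found for 7 of the 10 genes, not for Scnn1a, Slc12a2 and Aqp4.

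Cftr (chr6:18170686-18322767) had its highest level in a very small class, while most of its UMIs lay elsewhere. The 34 Foxi1/Ascl3+ cells (11, 6 and 17 in the 3 libraries), which carry transcription factor genes known from ionocytes, held 278 Cftr UMIs, or 12.8% of the epithelial Cftr UMIs in 0.104% of the epithelial cells. Their level was 789, 71.2 and 297 CPM by library and 394 CPM over all of them (exact Poisson 95% interval 349 to 443), and 219 CPM without library 1. Cftr was among the leading genes of these cells together with Stap1 and Kcnma1, beside Ascl3 and Foxi1, whose place follows from the gate. Since the class has under 20 cells in each library, it entered no test.

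Within these 34 cells Cftr was uneven, and 11 of them (32.4%) had any Cftr UMI. The cell with the most held 90 Cftr UMIs. After the values were seen, the cells were set apart by their Cftr UMIs as a description with no test. The 6 cells with at least 5 Cftr UMIs (4, 1 and 1 by library) held 268 Cftr, 272 Slc12a2, 28 Scnn1a, 41 Scnn1b and 37 Scnn1g UMIs of 146195 in all, with 3 Aqp3 UMIs, 1 Aqp5 UMI and 0 Ano1 UMIs. The 23 cells with no Cftr UMI held 682 Aqp3, 169 Aqp5, 61 Slc12a2, 39 Scnn1a, 6 Scnn1b and 6 Scnn1g UMIs of 451970. Another 10 Scnn1a UMIs of 107078 were in the 5 cells with 1 to 4 Cftr UMIs. Per UMI counted, Scnn1a and Slc12a2 were both higher in the 6 cells than in the 23 cells, Slc12a2 at 1861 against 135 CPM. By number, most Scnn1a UMIs of the class still lay outside the 6 cells. The Scnn1b and Scnn1g UMIs of the 6 cells came from the same 3 cells, all of library 1, and the cells of libraries 2 and 3 among the 6 had 0 of both.

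**Figure D3:**
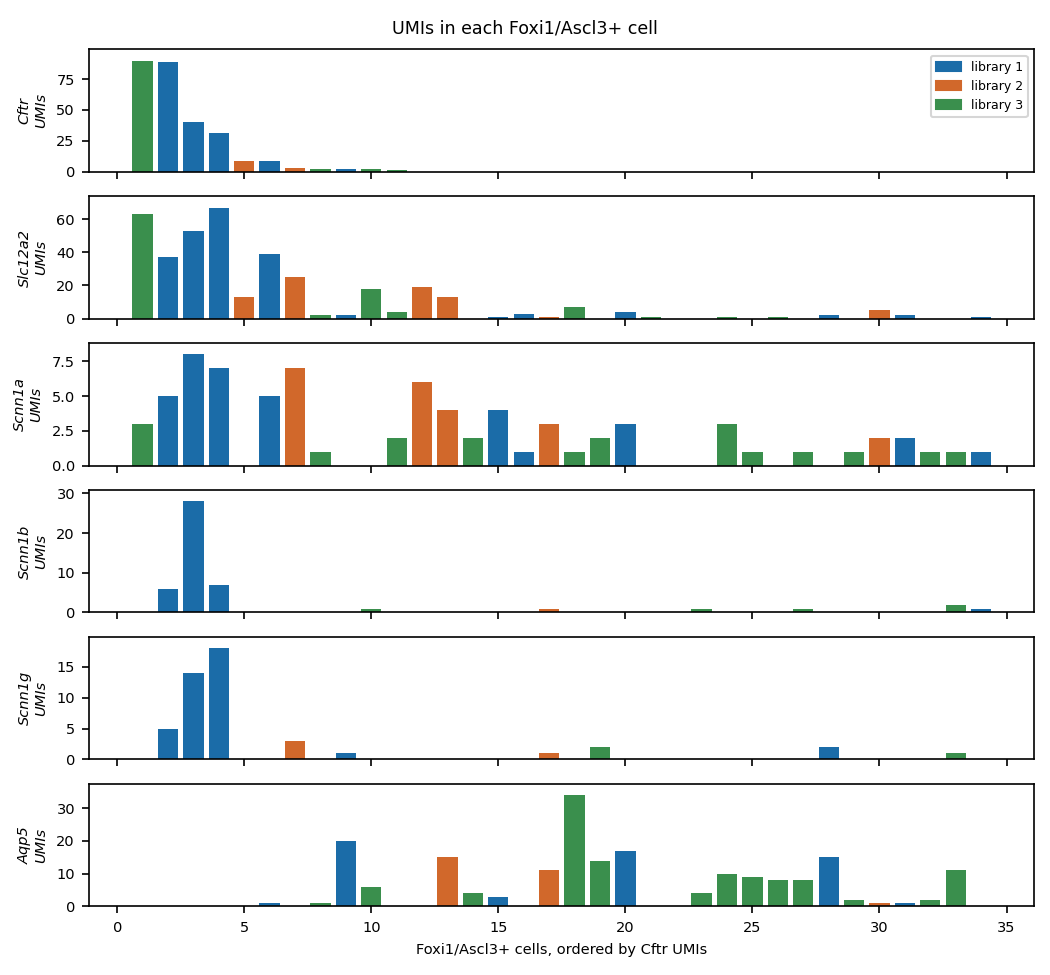
UMIs of Cftr, Slc12a2, Scnn1a, Scnn1b, Scnn1g and Aqp5 in each of the 34 Foxi1/Ascl3+ cells, ordered by Cftr UMIs, with bars coloured by library. The 6 cells with at least 5 Cftr UMIs carry 272 Slc12a2 UMIs and 1 Aqp5 UMI, and Aqp5 is seen in 18 of the 23 cells without Cftr.

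Outside these cells Cftr was low. Sult1b1/Muc4/Atp6v0a4+ cells had 14.5, 12.2 and 11.3 CPM (12.7 ± 1.65, n = 3), the most even level of any of the higher classes. Tuft cells had 33, 3.56 and 5.81 CPM, a mean of 14.1 CPM that rested on library 1 and was 4.68 CPM without it. Muc5b-high cells, rich in a gel-forming mucin, had 9.3, 3.75 and 12.6 CPM. Neither gland-product-high cells (1.89, 0 and 2.83 CPM) nor Tmprss11a+ basal cells (1.89, 1.11 and 2.51 CPM) held much of it. At 5000 UMIs, 5.57 ± 0.46% of Sult1b1/Muc4/Atp6v0a4+ cells, 24.2% of 33 Foxi1/Ascl3+ cells and 0 of 182 leukocytes (up to 1.65%) showed Cftr.

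Because the other classes are so much larger, most cells with Cftr lay outside the Foxi1/Ascl3+ gate. Of 1214 epithelial cells with a Cftr UMI, 370 had at least 2 and 40 had at least 5. Of those 40 cells, 6 were Foxi1/Ascl3+, 8 were Sult1b1/Muc4/Atp6v0a4+ and 8 passed no class gate. Of the 9 cells with at least 10, 4 were Foxi1/Ascl3+.

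Ano1 and Slc12a2 had their highest epithelial means in Muc5b-high cells and their lowest, among the 14 classes, in ciliated cells. Ano1 (chr7:144142278-144305711) stood at 125, 203 and 183 CPM (170 ± 40.6, n = 3) in Muc5b-high cells and at 140, 162 and 120 CPM in Sult1b1/Muc4/Atp6v0a4+ cells, which overlapped. Gland-product-high (89.9, 101 and 109 CPM), Grm8+ (102, 96.2 and 94.8 CPM) and Scgb1a1-high cells, rich in the club cell secretoglobin (85.5, 103 and 107 CPM), lay close together. Ciliated cells had 8.24, 7.39 and 12.5 CPM, so that the top mean was 18.2-fold the lowest. Outside the epithelium mural cells had 460, 189 and 304 CPM. At 5000 UMIs, Ano1 was seen in 46.9 ± 7.87% of Muc5b-high cells, 2.09 ± 1.22% of ciliated cells and 0 of 182 leukocytes.

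Slc12a2 was at 955, 540 and 949 CPM (815 ± 238, n = 3) in Muc5b-high cells and at 480, 759 and 558 CPM (599 ± 144, n = 3) in gland-product-high cells. These overlapped each other and no other of the 14 epithelial classes. The next class, Sult1b1/Muc4/Atp6v0a4+ cells, had 184, 193 and 147 CPM. Ciliated cells had 11.4, 13 and 19 CPM, and the top mean was 56.2-fold theirs. Foxi1/Ascl3+ cells reached 973, 451 and 303 CPM. At 5000 UMIs, 61.4 ± 5.52% of Muc5b-high cells and 3.98 ± 0.799% of ciliated cells showed Slc12a2, beside 5.11 ± 5.37% of leukocytes. By level, leukocytes had 7.38, 19.7 and 5.14 CPM, and the ranges of both classes overlapped.

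Clca3a2 (chr3:144502320-144525255) followed a pattern of its own, with ciliated cells near the top. Grm8+ cells had 76.5, 37.4 and 75.7 CPM (63.2 ± 22.4, n = 3), ciliated cells 67.9, 39.1 and 57.3 CPM, and basal cells with neither gate gene 66.7, 20.8 and 48.5 CPM. All of these were lowest in library 2 and overlapped. In Muc5b-high cells Clca3a2 had 0.93, 0 and 0 CPM, and at 5000 UMIs it was seen in 0 of 130 of them, which allows up to 2.31%, beside 14.4 ± 4.35% of Grm8+ cells. Clca3a1 and Clca3a2 are close paralogs, so how reads were divided between them is uncertain.

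The 3 aquaporins divided the classes in different ways. Among the 14 classes, Aqp3 was highest in Krt13-high cells and low in Scgb1a1-high, ciliated, gland-product-high and Muc5b-high cells, Aqp4 was lowest in Krt13-high and gland-product-high cells, and Aqp5 was lowest in ciliated cells.

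Aqp3 (chr4:41092722-41098183) was highest in Krt13-high cells, with 3874, 3859 and 5140 CPM (4291 ± 735, n = 3), above every library of every other class. The basal, Grm8+, Scgb3a2-high and Sult1b1/Muc4/Atp6v0a4+ classes had 1878 to 3281 CPM in each library, and tuft cells 1418, 1744 and 1586 CPM. Below a gap came Scgb1a1-high cells (353, 253 and 298 CPM), ciliated cells (137, 202 and 352 CPM), gland-product-high cells (97, 52.5 and 650 CPM) and Muc5b-high cells (213, 75 and 263 CPM). Leukocytes had 52.6, 35.1 and 365 CPM, highest in library 3 like the gland-product-high cells. Aqp3 was seen in 99.3 ± 0.141% of Krt13-high cells at 5000 UMIs, 23.9 ± 9.4% of ciliated cells, 35.6 ± 16% of Muc5b-high cells and 30.6 ± 24.1% of leukocytes. By level, ciliated and Muc5b-high cells lay above leukocytes in libraries 1 and 2 and below them in library 3.

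Aqp4 was highest in Sult1b1/Muc4/Atp6v0a4+ cells, at 379, 337 and 391 CPM (369 ± 28.1, n = 3), and nearly as high in epithelial cells that passed no class gate (378, 356 and 360 CPM), Nkx2-1+ basal (382, 317 and 353 CPM) and Scgb3a2-high cells (323, 332 and 349 CPM). Each of these overlapped the Sult1b1/Muc4/Atp6v0a4+ range, while cells of no class gate and Scgb3a2-high cells did not overlap each other. Tmprss11a+ basal cells had 167, 166 and 156 CPM. Krt13-high cells had 54.2, 94.9 and 66.5 CPM and gland-product-high cells 81.9, 42.7 and 65.4 CPM, the lowest 2 of the 14 classes. At 5000 UMIs, 75.6 ± 3.55% of Sult1b1/Muc4/Atp6v0a4+ cells and 3.55 ± 4.3% of leukocytes showed it.

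Aqp5 (chr15:99488532-99492710) was at 801, 737 and 991 CPM (843 ± 132, n = 3) in Sult1b1/Muc4/Atp6v0a4+ cells and at 746, 587 and 986 CPM in Scgb3a2-high cells, which overlapped. Krt13-high cells had 528, 513 and 1265 CPM, with library 3 far above the others. Gland-product-high (585, 416 and 908 CPM) and Muc5b-high cells (678, 384 and 719 CPM) overlapped that range, and Tmprss11a+ basal cells had 298, 250 and 391 CPM. Ciliated cells had 91.8, 56.7 and 104 CPM, the lowest level of the 14 classes. At 5000 UMIs Aqp5 was seen in 89.7 ± 2.69% of Sult1b1/Muc4/Atp6v0a4+ cells and 18.1 ± 4.99% of ciliated cells, beside a leukocyte share of 0 to 25% over libraries. By level, leukocytes had 12, 2.19 and 177 CPM, below ciliated cells in libraries 1 and 2 and above them in library 3.

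Whether the genes sit in the same cells was asked by dividing the cells with UMIs of both genes by the number expected from their separate shares within each library and class, at 5000 UMIs. Classes with under 20 thinned cells in a library, among them the Foxi1/Ascl3+ cells in each library, were left out of these numbers. Most pairs came out close to 1, the value of independence. Among the 10 pairs set apart, Scnn1b with Scnn1g had the highest mean ratio. The pair was seen in 29, 18 and 63 cells against 10.5, 12.9 and 26.6 expected, ratios of 2.77, 1.4 and 2.37 (2.18 ± 0.705, n = 3 libraries). It was above 1 in all 3 libraries, with library 2 lowest. By class, 31 Sult1b1/Muc4/Atp6v0a4+ cells held both against 11.1 expected, 34 Tmprss11a+ basal cells against 19.8, and 10 Krt13-high cells against 2.64.

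Within classes the alpha subunit was spread nearly independently of Scnn1b and lay slightly more often with Scnn1g. Scnn1a with Scnn1b gave ratios of 0.878, 0.988 and 1.01, and Scnn1a with Scnn1g 1.12, 1.09 and 1.17, above 1 in every library. With expected shares taken over all epithelial cells, Scnn1a with Scnn1b was below 1 in every library (0.727, 0.807 and 0.82). Scnn1a with Cftr gave 0.954, 1.03 and 1.23, and Cftr with Aqp5 1.03, 0.863 and 1.05, neither on 1 side of 1 in all libraries. Scnn1a with Aqp5 (1.05, 1.04 and 1.06), Aqp4 with Aqp5 (1.09, 1.06 and 1.08) and Aqp3 with Aqp5 (1.02, 1.01 and 1.01) lay just above 1 in every library. Cftr with Slc12a2 gave 0.843, 0.797 and 1.02, and Cftr with Ano1 gave 1.21, 1.29 and 1.01. With shares over all epithelial cells, which take in the Foxi1/Ascl3+ cells, Cftr with Slc12a2 gave 0.994, 0.913 and 1.08. Cells of 1 library are not replicates, and no p-value is attached to these ratios.

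In Sult1b1/Muc4/Atp6v0a4+ cells, the class where most of the genes were high, 51 thinned cells showed Cftr, of which 43 also showed Aqp5, 30 Ano1, 19 Scnn1a and 16 Slc12a2. The expected numbers were 46.2, 22.3, 16 and 18.3. In Foxi1/Ascl3+ cells, of 8 thinned cells with Cftr 7 showed Slc12a2 (3.59 expected), 5 showed Scnn1a (4.11 expected), 2 showed Aqp5 (4.24 expected) and 0 showed Ano1 (1.44 expected). The difference between the classes was not tested.

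Of the pairs not set apart, Scnn1g with Cftr gave 1.74, 3.22 and 1.49 over 36 cells, Scnn1g with Clca3a2 gave 2.38, 1.78 and 1.63, and Cftr with Clca3a2 1.66, 2.91 and 1.54. Slc12a2 with Clca3a2 was below 1 in each library, at 0.632, 0.528 and 0.82. These were picked from 45 pairs after their values were seen.

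**Figure D4:**
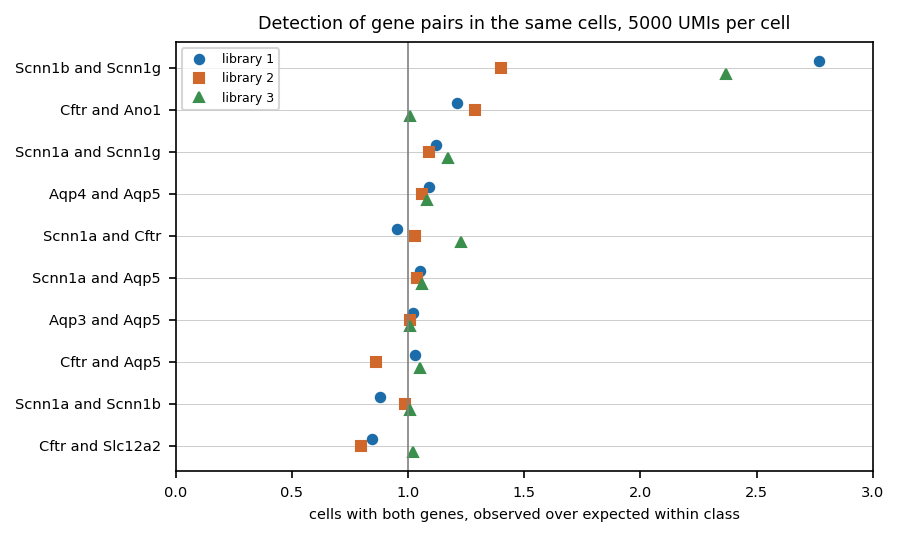
Cells with UMIs of both genes over the number expected within library and class, for the 10 pairs set apart, with 1 point per library and a line at 1. Classes with under 20 thinned cells in a library are left out. Scnn1b with Scnn1g lies at 2.77, 1.4 and 2.37, and the other pairs lie between 0.797 and 1.29.

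Between classes 6 comparisons, and 1 more between cells with and without a Lrig1 UMI, were then tested with edgeR's quasi-likelihood test on UMI sums per library and class, and p-values were adjusted by Benjamini-Hochberg across the genes of each fit (17199 in the class comparisons). A difference was called at an adjusted p under 0.05, and log2 fold changes carry their SE. Nkx2-1+ basal cells are called airway basal and Tmprss11a+ basal cells squamous basal here.

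Airway and squamous basal cells differed in 5 of the 10 genes, while 14.8% of all genes tested were called. Scnn1b was lower in airway than in squamous basal cells by a log2 change of −4.23 ± 0.49, an 18.7-fold difference (adjusted p = 1.0e-07). Scnn1g was lower by −1.60 ± 0.35 (3.02-fold, adjusted p = 0.0013), a call lost without library 1 (adjusted p = 0.099). Scnn1a went the other way, at 1.48 ± 0.5 (2.79-fold higher in airway basal cells, adjusted p = 0.041), and was higher in 3 of 3 libraries with log2 ratios of 1.61, 1.38 and 1.49. This call was lost in 5 of 12 alternatives, among them those without library 1 or 2, with adjusted p-values from 9.3e-06 to 0.42 over the alternatives. The smallest came from the fit with the library as a block, which pairs sums of the same pool (log2 1.49 ± 0.24).

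Ano1 was also lower in airway basal cells, with 30.9, 32.1 and 36 CPM against 75.1, 78.3 and 67.2 CPM (log2 −1.17 ± 0.16, adjusted p = 1.7e-06). Aqp4 was higher there, by 1.09 ± 0.2 (2.13-fold, adjusted p = 1.6e-04). With the library as a block, 29.5% of all genes and 7 of the 10 were called, the added genes being Clca3a2 (−0.97, adjusted p = 0.031) and Aqp5 (0.69, adjusted p = 0.0014). Cftr (0.97 ± 0.56), Slc12a2 (0.38 ± 0.3) and Aqp3 (−0.10 ± 0.42) were called in neither fit.

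Krt13-high and squamous basal cells differed in 2 of the 10 genes, with 15.2% of all genes called. Aqp4 was lower in Krt13-high cells (log2 −1.07 ± 0.21, adjusted p = 2.9e-04) and Aqp5 was higher (1.43 ± 0.32, adjusted p = 0.0017). Without library 1 neither was called (adjusted p = 0.056 and 0.062). The block, under which 30.9% of all genes were called, added Clca3a2 (−1.29, adjusted p = 0.011). The ENaC subunits had log2 changes of 0.12 ± 0.5 (Scnn1a), −0.17 ± 0.4 (Scnn1b) and −0.10 ± 0.34 (Scnn1g), and Aqp3 of 0.69 ± 0.42 (adjusted p = 0.3), although its ranges over libraries did not overlap.

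Scgb1a1-high and airway basal cells differed in 2 of the 10 genes, with 17.6% of all genes called. Ano1 was higher in Scgb1a1-high cells (log2 2.10 ± 0.19, 4.29-fold, adjusted p = 3.7e-10) and Aqp3 was lower (−2.63 ± 0.46, 6.2-fold, adjusted p = 5.7e-05), both in 3 of 3 libraries. Under the block (20% of all genes called) Aqp5 was added at 0.65 (adjusted p = 0.0061), while its plain CPM gave log2 ratios of 0.20, −0.32 and 0.30. The scaling matters here, as Bpifa1 alone took 15.2% to 16% of the UMIs of Scgb1a1-high cells against 0.267% to 0.329% in airway basal cells. The fitted values of genes of at least 10 CPM lay 0.57 log2 units above plain CPM ratios at the median, and in the ciliated comparison 0.39 below (a difference of −0.39). Of the called genes 48.5% were higher in Scgb1a1-high cells, and 62.3% with DESeq2.

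Muc5b-high and gland-product-high cells were set against Scgb1a1-high cells. In both, Slc12a2 was higher, by 2.79 ± 0.35 in Muc5b-high cells (6.91-fold, adjusted p = 1.6e-06) and by 2.47 ± 0.35 in gland-product-high cells (5.55-fold, adjusted p = 1.6e-05), in 3 of 3 libraries each. It was the only one of the 10 genes called for Muc5b-high cells, with 4.79% of all genes called, and Ano1 was at 0.60 ± 0.19 (adjusted p = 0.072). In gland-product-high cells 2 of the 10 were called, with 4.62% of all genes, and the other was Aqp4, with 81.9, 42.7 and 65.4 CPM against 202, 103 and 235 CPM (−1.57 ± 0.23, adjusted p = 2.5e-05). These comparisons share the Scgb1a1-high sums, which come from 62, 23 and 53 cells.

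Ciliated and Scgb1a1-high cells differed in 4 of the 10 genes, with 33.6% of all genes called. Ano1 (log2 −3.75 ± 0.22, adjusted p = 6.7e-16), Slc12a2 (−3.22 ± 0.39, adjusted p = 2.0e-08) and Aqp5 (−3.11 ± 0.35, adjusted p = 4.8e-09) were lower in ciliated cells in 3 of 3 libraries. Over the alternatives their log2 changes ranged from −5.42 to −2.67, from −4.70 to −2.33 and from −3.89 to −1.80. Clca3a2 was higher, with 67.9, 39.1 and 57.3 CPM against 1.17, 0 and 4.86 CPM (adjusted p = 0.0026), a call lost without library 1 and with doublets kept (adjusted p up to 0.13). Scnn1a was at 192, 155 and 90.8 CPM in ciliated and 108, 158 and 131 CPM in Scgb1a1-high cells and was not called. Of the 19 calls in the 7 comparisons, 12 held under every alternative run and all 19 kept their direction in them.

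**Figure D5:**
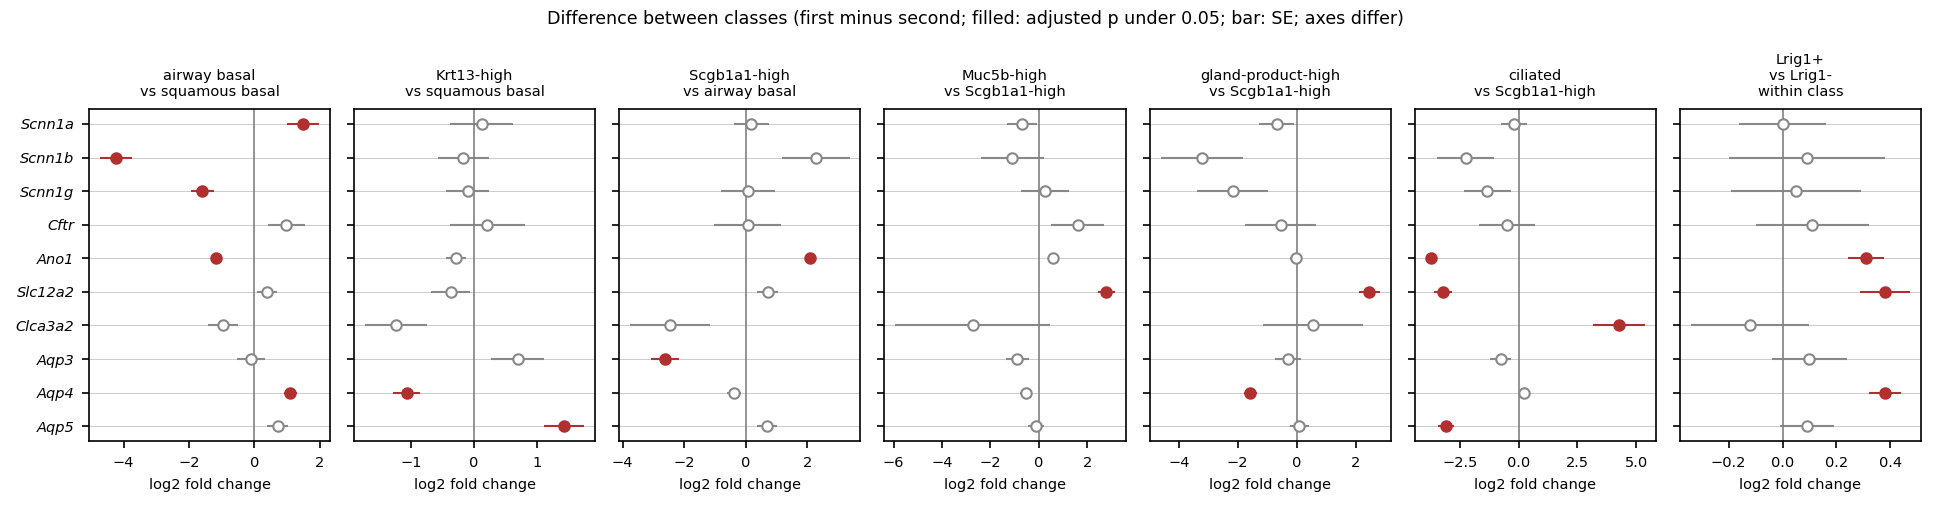
Log2 fold changes of the 10 genes in the 7 comparisons (points, first-named group minus second), with bars for 1 SE and filled points for an adjusted p under 0.05 in edgeR. The horizontal axes differ between panels. Scnn1b lies at −4.23 and Scnn1a at 1.48 for airway against squamous basal cells.

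The study's own question concerned Lrig1, and cells with and without a Lrig1 UMI were compared within 11 epithelial classes, averaged with equal weight. Of the 10 genes 3 were called, all of them higher in cells with Lrig1, while 12.3% of all 15398 genes tested were called (8.03% higher and 4.25% lower). Aqp4 was higher by 0.38 ± 0.058 (1.3-fold, adjusted p = 1.4e-05), called under all 11 alternatives. Slc12a2 was higher by 0.38 ± 0.093 (adjusted p = 0.0047), a call lost without library 2 (adjusted p = 0.07), and Ano1 by 0.31 ± 0.068 (adjusted p = 0.0017), a call lost when every gate minimum was doubled (adjusted p = 0.21). The other 7 had log2 changes between −0.12 and 0.11. The ENaC subunits were at −0.00 ± 0.16, 0.09 ± 0.29 and 0.05 ± 0.24.

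Aqp4 was higher with Lrig1 in all 3 libraries in 10 of the 11 classes. In airway basal cells it stood at 426, 344 and 376 CPM with Lrig1 and at 296, 250 and 309 CPM without, and in squamous basal cells at 195, 183 and 173 CPM against 110, 118 and 124 CPM. The exception was the gland-product-high class, with 96.7, 33.5 and 61.9 CPM against 69.9, 48.7 and 68.4 CPM. Slc12a2 was higher in all libraries in 7 classes and lower in all of them in Krt13-high cells, with 56, 50.9 and 27.5 CPM against 73.2, 73.7 and 37.2 CPM. Ano1 was higher in all libraries in 6 classes and lower in all of them in Scgb3a2-high cells. The median of its class means was 0.17. Its ciliated mean of 1.93 (SD 1.80), which entered the average with equal weight, rests on 0.467 CPM in cells without Lrig1 of library 1. Cells with a Lrig1 UMI were deeper, with median UMIs 1.1 to 3.82 times those of cells without (median of the ratios 1.42, 18432 against 13652 cells), and the part of depth in these differences was not tested. Under another scaling (RLE) the share of called genes that were higher was 50.7% in place of 65.4%, with Aqp4 at 0.37, Slc12a2 at 0.36 and Ano1 at 0.29, still called.

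Other genes of the same pathways were counted by list, and the median log2 change over all genes tested was −0.01, −0.07, −0.20, 0.00, 0.07, 0.15 and 0.00 in the 7 comparisons in the order above. Potassium recycling channels (Kcnq1, Kcne3, Kcnn4, Kcnma1 and Kcnk5), which keep the cell negative while chloride leaves, are given first. In the same order 14.8%, 15.2%, 17.6%, 4.79%, 4.62%, 33.6% and 12.3% of all genes tested were called, against which the counts of each list stand. Of these 5, 1 was higher and 3 lower in airway against squamous basal cells (median −1.35), 3 were higher in Krt13-high cells (1.28) and 4 in Scgb1a1-high against airway basal cells (3.53). Against Scgb1a1-high cells, 3 were higher in Muc5b-high cells (1.71), 2 in gland-product-high cells (1.14) and 0 in ciliated cells, where 2 were lower (−1.33). With Lrig1, 1 was higher and 1 lower (−0.38).

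Kcnma1, a calcium-activated potassium channel, was higher in airway basal cells (20.5, 17.4 and 10.5 against 1.78, 0.81 and 3.11 CPM, adjusted p = 3.8e-04), while Kcnk5 was lower there (log2 −2.68 ± 0.29, adjusted p = 2.7e-08) and higher in Krt13-high than in squamous basal cells (2.11 ± 0.26, adjusted p = 3.4e-07). Kcne3 and Kcnq1, which form a cAMP-responsive channel together, were higher in Scgb1a1-high than in airway basal cells (4.35 ± 0.36 and 3.53 ± 0.49) and lower in ciliated cells (−3.35 ± 0.36 and −1.33 ± 0.46). Kcnn4 was higher in Muc5b-high (2.71 ± 0.63) and gland-product-high cells (3.25 ± 0.6) than in Scgb1a1-high cells.

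Of 12 ENaC regulators 11 passed the filter on low counts. In the comparisons in order, 1, 4, 6, 2, 1, 1 and 2 of them were higher and 1, 1, 1, 1, 1, 5 and 0 lower, with medians of 0.17, 0.35, 0.67, 0.05, −0.00, −0.69 and 0.01. Nr3c2, the mineralocorticoid receptor, was higher in airway than in squamous basal cells (1.28 ± 0.27, adjusted p = 7.4e-04) and in cells with Lrig1 (0.54 ± 0.079, adjusted p = 8.6e-06), where Nedd4l, the ubiquitin ligase that removes ENaC from the membrane, was at 0.19 ± 0.036 (adjusted p = 3.7e-04). Bpifa1, a secreted protein known to inhibit ENaC, was higher in Scgb1a1-high than in airway basal cells (6.24 ± 0.56) and lower in ciliated cells (−5.53 ± 0.54). Tmprss4, a membrane protease, was higher in Krt13-high than in squamous basal cells, with 28.5, 40.5 and 47.2 against 3.9, 3.54 and 5.78 CPM. Furin, which cleaves ENaC, was higher in Muc5b-high (1.88 ± 0.19) and gland-product-high cells (1.73 ± 0.19) than in Scgb1a1-high cells.

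Of the 5 sodium pump subunits and their FXYD partners, 1, 1, 1, 1, 1, 2 and 0 were higher and 2, 0, 1, 0, 0, 2 and 0 lower in the same order, with medians of −0.31, −0.05, −0.32, 0.01, 0.30, 0.20 and 0.03. Fxyd4 was lower in airway than in squamous basal cells (1.1, 2.37 and 1.21 against 16.9, 8.81 and 9.29 CPM, adjusted p = 3.7e-05) and was at 9.83, 14.1 and 11.1 CPM in ciliated cells against 0 in every Scgb1a1-high library. Fxyd3 was higher in Muc5b-high (1.05 ± 0.13) and gland-product-high cells (0.70 ± 0.13) and lower in ciliated cells (−1.60 ± 0.14) than in Scgb1a1-high cells. Atp1b3 was lower in airway basal cells (−0.95 ± 0.16) and higher in Krt13-high cells (0.82 ± 0.16) than in squamous basal cells.

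Of 8 other chloride and bicarbonate transporters and anchors (7 tested for Lrig1), 1, 2, 1, 1, 0, 3 and 1 were higher and 1, 1, 0, 0, 0, 1 and 1 lower, with medians of −0.28, 0.35, 0.01, 0.27, 0.22, 1.59 and −0.09. Slc4a4, the sodium bicarbonate cotransporter NBCe1, was higher in airway than in squamous basal cells (2.16 ± 0.26, adjusted p = 1.9e-07), higher again in Scgb1a1-high cells (1.76 ± 0.31) and lower in ciliated than in Scgb1a1-high cells (−2.35 ± 0.33). Nherf1, which anchors CFTR at the apical membrane, was higher in ciliated than in Scgb1a1-high cells, with 298, 269 and 410 against 35.2, 30.4 and 61.6 CPM.

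Of the 6 other CLCA genes 4 were tested, of which 1, 1, 1, 0, 0, 2 and 1 were higher and 0, 1, 1, 0, 0, 1 and 0 lower (medians 0.54, −0.04, −1.67, −0.16, −0.21, 2.55 and 0.03). Clca3b was higher in Krt13-high than in squamous basal cells (3.20 ± 0.5, adjusted p = 2.1e-05), and Clca1, the mucus-associated member, was higher in Scgb1a1-high than in airway basal cells, with 57.4, 60.9 and 45.4 against 3.58, 2.03 and 2.26 CPM. Clca3a1 was at 35.3, 35.4 and 37.7 CPM in ciliated cells and at 0 in every Scgb1a1-high library, the same direction as its paralog Clca3a2.

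Of the 4 other anoctamins (3 tested for Lrig1), 1, 0, 0, 1, 0, 0 and 0 were higher and 1, 1, 0, 0, 0, 0 and 0 lower (medians −0.33, −0.36, −0.51, 0.26, 0.47, 0.06 and 0.03). Ano9 was lower in airway than in squamous basal cells (−1.81 ± 0.29, adjusted p = 2.7e-05), as Ano1 was, and Ano7 was at 16.7, 9.38 and 10.8 CPM in Muc5b-high cells against 0 in every Scgb1a1-high library. Of the 7 other aquaporins 3 were tested, of which 1, 0, 2, 0, 0, 0 and 0 were higher and 0, 0, 0, 0, 0, 0 and 1 lower (medians −0.34, 0.62, 1.26, −0.53, −0.27, 1.28 and 0.12). Aqp11, an intracellular aquaporin, was higher in airway than in squamous basal cells (0.96 ± 0.24) and higher in Scgb1a1-high than in airway basal cells (1.26 ± 0.34).

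Of 5 receptors that trigger fluid secretion, 1, 0, 1, 1, 0, 1 and 1 were higher and 1, 1, 0, 0, 1, 2 and 0 lower (medians 0.45, −0.01, 0.29, −0.39, −0.68, −0.31 and 0.17). Chrm3, the muscarinic receptor of gland secretion, was higher in airway than in squamous basal cells (2.10 ± 0.25, adjusted p = 1.8e-07), lower in Krt13-high cells (−2.62 ± 0.28, adjusted p = 3.7e-08) and higher in cells with Lrig1 (0.48 ± 0.081, adjusted p = 7.0e-05). Vipr1, a receptor for vasoactive intestinal peptide that raises cAMP, was higher in Scgb1a1-high than in airway basal cells (2.87 ± 0.46), and Adora2b, an adenosine receptor that also raises cAMP, was lower in gland-product-high than in Scgb1a1-high cells, with 3.02, 0.821 and 7.73 against 15.2, 15.2 and 16.2 CPM.

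The genes whose levels ran most like each of the 10 over the 44 epithelial sums are given as a description. Scnn1a ran most like Per2, a clock gene (r = 0.883, and 0.86, 0.76 and 0.83 within the libraries), then Zc3h6 and Cir1. Per2 over all epithelial cells was at 32.9, 34.2 and 16.5 CPM and was lowest in library 3 in 13 of the 14 classes, as Scnn1a was in 12. Scnn1b ran most like Arap2 (0.803) and Scnn1g most like Nfe2l3 (0.828). Ano1 ran most like Gjb2, a gap junction gene (0.911), and Slc12a2 most like Kctd12b (0.870). Clca3a2 ran most like St3gal2 (0.855), Aqp3 like Phlda3 and Perp (0.973 and 0.970), Aqp4 like Galnt18 (0.871) and Aqp5 like Wdr72 (0.926). Within single libraries, over 14 or 15 sums each, the r of the first-named gene of each stayed between 0.76 and 0.98, while Zc3h6 fell to 0.63 in library 2 and Cir1 to 0.52 in library 3. Cftr, with a mean of 4.65 CPM over the sums, was below the 5 CPM needed.

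Among the 10 genes themselves, Ano1 with Aqp5 (r = 0.82), Scnn1b with Scnn1g (0.75) and Ano1 with Slc12a2 (0.69) had the highest correlations over the 44 sums, and Slc12a2 with Clca3a2 the lowest (−0.66). These points share libraries, depth and scaling, and no test was made.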

How the data were processed

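The data were 10x Genomics Chromium GEM-X 3′ v4 libraries of tdTomato-sorted larynx cells, sequenced on a NovaSeq X Plus. The deposited files hold raw UMI counts per gene and barcode, which the authors made with Cell Ranger 8.0.1 on mm39 per the submitters' processing notes. Whether doublets were removed before deposit is not given in the sources used here.

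The quality limits were 500 to 8000 detected genes, 1000 to 40000 UMIs and no more than 8% of UMIs from mitochondrial genes, which are the limits of the study with its gene and UMI ranges read the other way round from their wording. Doublets were scored by the share of simulated doublets among nearest neighbours, and 0.4% per 1000 barcodes was removed in each library (4851 cells). Of 60530 barcodes 44542 remained, and the smallest library held 111339494 UMIs in kept cells. Minimum UMI numbers of marker genes set the classes, and the first gate passed, in a set order, named a cell.

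UMI counts were summed per library and class. Epithelial sums of 20 or more cells all entered 1 fit in edgeR 4.0.16 (TMM, filterByExpr, quasi-likelihood test, two-sided, R 4.3.3), with the library as replicate and without a block. For Lrig1 the fit held sums of cells with and without a Lrig1 UMI in 11 classes. DESeq2 1.42.0, RLE scaling, no filter on low counts, a library block, only the 2 classes compared, doublets kept, doubled gates, at least 50 cells per sum, all barcodes of at least 1000 UMIs and leaving out each library were the alternatives. The block pairs sums of the same pool of animals. Deviations of sums of the same library from their class means correlated between 0.0122 and 0.822. The test was checked on simulated counts. Levels, shares and co-detection were described with no test, since the smallest exact two-sided p of 3 libraries against 3 is 0.1.

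Named are the 10 genes, of each list the 2 called genes with the largest absolute log2 fold change at a mean of at least 5 CPM in a comparison, and for each gene of at least 5 CPM the 3 genes with the most similar levels among those of at least 10 CPM. The members and lists were chosen with earlier results of these data known.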

Additional observations from a re-analysis of the deposited data

Results flagged for a closer look

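The difference between cells with and without a Lrig1 UMI went one way in all 3 libraries in some classes and the other way in all 3 in another class, for 6 of the 10 genes. Values are the mean log2 difference over 3 libraries, cells with a Lrig1 UMI minus cells without. The difference between the classes was not tested, and a shared sign in 3 libraries is given as a description only.

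For Scnn1a the value was 0.14 in Krt13-high and 0.09 in Nkx2-1+ basal cells against −0.07 in Grm8+ cells (−0.08, −0.13 and −0.01 by library). Cftr was at 0.96 in Nkx2-1+ basal cells and 0.79 in epithelial cells of no gated class, against −0.55 in Sult1b1/Muc4/Atp6v0a4+ cells. Library 2 weighed most in each, with 0.56, 1.62 and 0.70, with 0.18, 2.07 and 0.12, and with −0.55, −0.91 and −0.18 by library in that order. In Nkx2-1+ basal cells of library 2 without a Lrig1 UMI, Cftr was at only 0.387 CPM.

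Ano1 was at 1.93 in ciliated, 0.53 in gland-product-high, 0.55 in Krt13-high and 0.36 in Sult1b1/Muc4/Atp6v0a4+ cells, at 0.31 in basal cells with neither gate gene and at 0.17 in epithelial cells of no gated class, against −0.12 in Scgb3a2-high cells. The ciliated value has an SD of 1.80 and rests on a level of 0.467 CPM in cells without Lrig1 of library 1, and the Scgb3a2-high value was −0.00 in library 3. In Krt13-high cells library 2 was at 1.16 and library 3 at 0.03. Slc12a2 was at 1.36 in ciliated, 0.41 in Scgb3a2-high, 0.46 in Sult1b1/Muc4/Atp6v0a4+, 0.58 in Grm8+, 0.25 in Nkx2-1+ basal and 0.84 in Tmprss11a+ basal cells and at 0.17 in basal cells with neither gate gene, against −0.45 in Krt13-high cells. The level of Slc12a2 in ciliated cells overlapped that in leukocytes.

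Clca3a2 was at 0.99 in ciliated and 0.25 in Grm8+ cells against −1.78 in Krt13-high cells, where the libraries were at −0.28, −3.37 and −1.69 (SD 1.55). Aqp5 was at 0.09 in Grm8+ cells, 0.10 in Nkx2-1+ basal cells, 0.23 in basal cells with both gate genes and 0.05 in epithelial cells of no gated class, against −0.34 in Sult1b1/Muc4/Atp6v0a4+ cells.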

How the results depend on the processing

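No called result reversed its direction under the alternatives run. With the replicate block, which pairs sums of the same library, the count of all genes called was 5077 for airway against squamous basal cells (2549 without the block), 5308 for Krt13-high against squamous basal cells (2617) and 3386 for Lrig1 (1891). The block added the calls of Clca3a2 and Aqp5 given above and changed no other call of the 10 genes. With doubled gates the counts were 3953 for Krt13-high, 1478 for Muc5b-high (823), 1572 for gland-product-high (795) and 1238 for Lrig1. In that setting 2 of the 10 genes were called for Muc5b-high cells, as with DESeq2, which called 948 of all genes there. With only the compared classes in the fit, 503 genes were called for Muc5b-high and 278 for gland-product-high cells. With all barcodes of at least 1000 UMIs, 4 of the 10 genes were called for Scgb1a1-high against airway basal cells. The count of all genes called there is not given, so these 4 cannot be set against it. For Lrig1, 993 genes were called in that setting. The causes were not tested.

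Leaving out 1 library in turn left 3 to 5 of the 10 genes called for airway against squamous basal cells, 0 to 3 for Krt13-high, 2 for Scgb1a1-high against airway basal cells, 1 to 2 for Muc5b-high, 2 to 3 for gland-product-high, 3 to 5 for ciliated cells and 2 to 3 for Lrig1. In that order the counts of all genes ranged from 914 to 2179, 1077 to 1999, 1592 to 2373, 245 to 521, 317 to 499, 3754 to 4902 and 609 to 1584, and each was lowest without library 1. These fits rest on fewer samples.

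Co-detection ratios moved most for Scnn1b with Scnn1g, to 3.3 with expected shares taken over all epithelial cells, and from 1.88 to 2.57 without 1 library. With shares over all epithelial cells Scnn1a with Scnn1b was 0.784, Scnn1a with Scnn1g 1.03, Scnn1a with Aqp5 1.07, Aqp3 with Aqp5 1.04 and Aqp4 with Aqp5 1.1. Without thinning Scnn1a with Scnn1b was 1.12, with Scnn1g 1.18 and with Aqp5 1.06. At 2000 UMIs Scnn1a with Cftr was 1.22 and with Aqp5 1.08, Cftr with Aqp5 0.84, Cftr with Ano1 1.68, Aqp3 with Aqp5 1.03 and Aqp4 with Aqp5 1.1. Doubled gates gave 1.02 for Scnn1a with Scnn1g and 1.08 for Cftr with Aqp5, and kept doublets 1.17 for Scnn1a with Scnn1g. The ratio of Scnn1a with Scnn1b thus lay on either side of 1 by setting.

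Levels with doubled gates were 22.9 CPM for Scnn1b and 46.4 CPM for Scnn1g in Sult1b1/Muc4/Atp6v0a4+ cells, 1244 CPM for Slc12a2 in Muc5b-high cells and 781 CPM for Cftr in Foxi1/Ascl3+ cells. With doublets kept Cftr was 33.5 CPM in tuft and 471 CPM in Foxi1/Ascl3+ cells, and with all barcodes 31 and 595 CPM. Without 1 library it ranged from 219 to 496 CPM in Foxi1/Ascl3+ and from 4.68 to 19.4 CPM in tuft cells. At 2000 UMIs the shares of cells with a UMI, each in the class of the gene's highest level among the 14, were 32.8% (Scnn1a), 4.4% (Scnn1b), 5.4% (Scnn1g), 21.8% (Ano1), 44.8% (Slc12a2), 7.46% (Clca3a2), 95.7% (Aqp3), 47% (Aqp4) and 72% (Aqp5), since fewer UMIs detect fewer transcripts. For single genes and settings, 780 values stayed on the same side of the threshold, 26 passed it newly and 12 no longer passed it. Direction was compared only where the main fit or the alternative called the gene, and none of these values reversed.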

Other observations

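Among the epithelial cells of no gated class, those with at least 20 Tg UMIs per 10000 (40, 23 and 9 cells in the 3 libraries, set apart after the values were seen) carried channel genes in another mix than the rest. Tg encodes thyroglobulin of thyroid follicles. Scnn1b was at 119, 122 and 60.3 CPM in them and at 6.1, 6.01 and 3.56 CPM in the other cells of no gated class. Cftr was at 24.8, 35.2 and 20.1 CPM against 4.87, 6.66 and 7.04 CPM, without overlap. Scnn1a was at 71.9, 111 and 33.5 CPM, below the 346, 354 and 103 CPM of the rest in each library, and Aqp3 was at 29.8, 22.3 and 60.3 CPM against 2045, 1741 and 2549 CPM. Aqp4 (4.96, 3.71 and 0 CPM) and Clca3a2 (0 CPM in each library) were nearly absent from their UMIs. These values rest on few cells and were not tested.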
